A study of Homo sapiens with 6 samples.

Results

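The genes described here build, cross-link, sever or pull on actin filaments. They are 52 listed genes for actins, tropomyosins, transgelins, calponins, myosins and other actin-binding proteins, taken from a list of names that was drawn up with earlier results of these data in view. Of the 52, 47 had at least 1 array probe set that named that gene alone, 136 probe sets in all, out of 19775 genes and 54613 probe sets that were not controls. Gene expression was measured in Caco2, a line from a human colon cancer, on 6 Affymetrix HG U133 Plus 2.0 arrays. The 3 parental arrays held RNA of cells that are sensitive to methotrexate (MTX), an antifolate, grown in Ham's F12 medium with serum. The 3 resistant arrays held RNA of Caco2 cells that had become resistant to 10 µM MTX through exposure to rising concentrations, and these were grown in a selective medium without glycine, hypoxanthine and thymidine, with dialyzed serum. Medium and resistance therefore cannot be told apart. Tropomyosins, myosins and actin-binding proteins were compared between the 2 groups to ask which of these transcripts differed in the resistant cells, and whether the isoforms typical of muscle moved like those that most cells use.

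Actin filaments are polymers of actin, and tropomyosins lie along them as coiled coils that decide which other proteins can bind. Non-muscle myosin II pulls on the filaments once myosin light chain kinase has phosphorylated its regulatory light chain, whereas the Arp2/3 complex branches them, cofilin and gelsolin sever them and plastin and alpha-actinin bundle them. In enterocytes, the cells that Caco2 can come to resemble, such filaments form the core of the microvilli and the contractile belt at the cell junctions. Several families hold a muscle-type gene, whose product is abundant in smooth or striated muscle, beside a ubiquitous relative made in most cells.

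The deposited values are signal intensities, and each is given here as a multiple of the median signal of its array, which lay between 10.6 and 12.8. A probe set was tested where its mean over the 6 arrays reached 1 array median. A gene was read from its brightest tested probe set, and called risen or fallen at an adjusted p below 0.05. Signals of different probe sets are not on one scale, so no gene's level is set against that of another. Parental array 3 stood apart from the other two of its group. Its correlation with them over all tested probe sets was 0.949 and 0.946, against 0.966 between parental arrays 1 and 2, and it lay closer to the resistant arrays (0.935 to 0.939) than these did (0.914 to 0.929). Among epithelial markers, 4 of 9 tested had risen (44.4%, beside 7.37% of all tested genes), namely KRT8, KRT18, KRT20 and VIL1, and none had fallen. The log2 changes of the 9 ran from -0.21 to 1.57. The summed signal of the epithelial markers ran from 1677 to 2181 array medians on the parental arrays and from 2538 to 2669 on the resistant ones. The defining gut factors CDX1 and CDX2 lay below the signal filter in these colon-derived cells.

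The muscle-type genes ACTA2 and TAGLN were lower in the resistant cells, and TPM1 and MYLK, the myosin light chain kinase gene, were higher. TPM2 and XIRP1 fell too, but reached a mean of 1 array median in parental cells alone. TPM2, TAGLN, ACTA2, XIRP1, MYH14, MYL12A and EPB41L2 fell by at least 2-fold, and MYLK and GSN rose by at least 2-fold. Of the 43 members bright enough to be tested, 6 had risen and 12 had fallen in limma's test. That is 14% risen and 27.9% fallen, beside 7.37% of all 11849 tested genes called higher and 5.05% called lower. At 2-fold or more 2 had risen and 7 had fallen, beside 3.37% and 2.17% of all tested genes. Without scaling to the array median 2 members had risen and 13 had fallen, and the shares of all tested genes were 5.06% and 5.27%. The 3 resistant arrays lay above the 3 parental ones for 8 tested members and below them for 19, where all tested genes gave 20.2% and 15.2%. The median log2 change was -0.15 over the tested members and 0.02 over all tested genes. In these cultures a lower share of cells making a transcript and less of it per cell cannot be told apart.

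Some of these counts come from dim genes. TPM2, MYL9, XIRP1, LCP1, EPB41L2 and FSCN1 reached a mean of 1 array median in 1 group alone. A gene that passes the filter only because it is high in 1 group is selected for a difference, so TPM2, XIRP1 and EPB41L2, which fell, carry no weight in the counts of 12 fallen and of 7 at 2-fold. Among the other 37 members 9 had fallen, 4 of them by at least 2-fold (ACTA2, TAGLN, MYL12A and MYH14), and 6 had risen, with a median log2 change of -0.07. Of the 17 members with a mean of at least 50 array medians, 7 passed the test and 2 of these, MYL12A and GSN, changed by at least 2-fold. The shares of all tested genes at the same brightness were not computed, so these counts have no background beside them. Without parental array 3 the members gave 10 risen and 16 fallen, and all tested genes then gave 16.9% risen and 15.3% fallen.

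**Figure D1:**
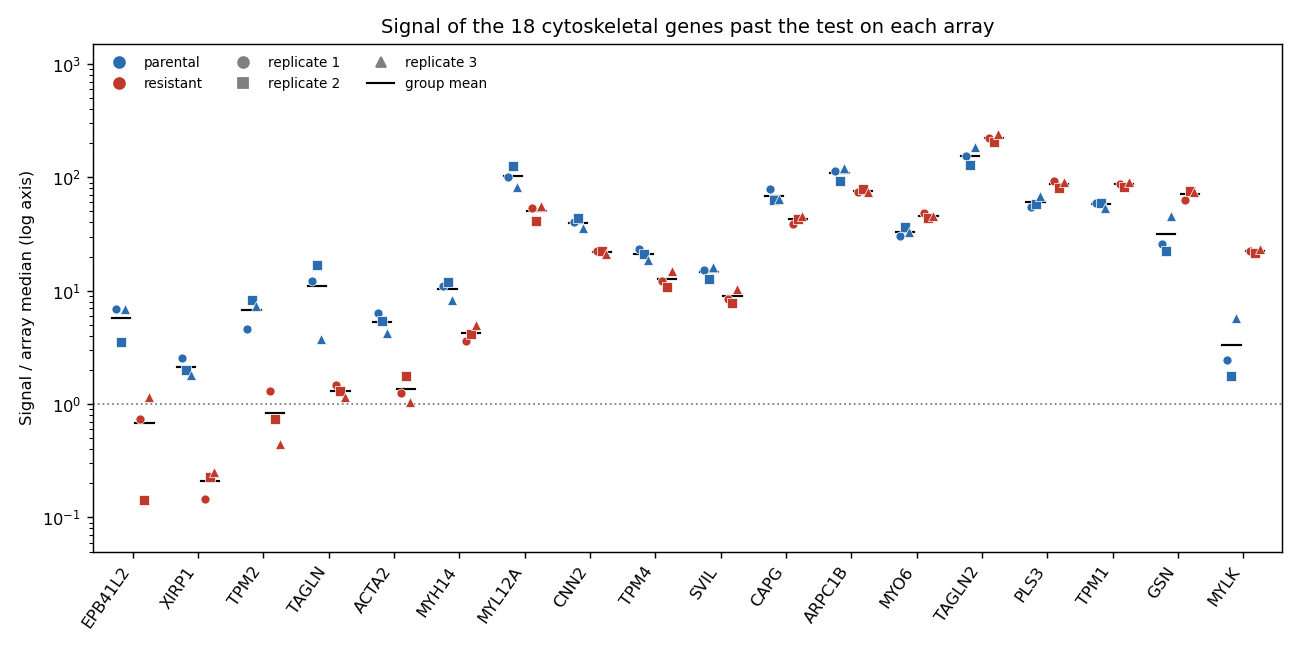
Signal of the 18 genes past the test on each array, as a multiple of the array median on a log axis. Points are single arrays (blue parental, red resistant, shape by replicate), bars are group means, and the dotted line is 1 array median. The 2 groups do not overlap for any of the 18 genes, and for TAGLN and MYLK parental array 3 is the parental point nearest to the resistant ones.

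The promoters of these genes were read because many of them are textbook targets of serum response factor, which binds the CArG box, a run of A and T between 2 C and 2 G. In a window from 250 bases before to 50 bases after the transcript start, taken from RefSeq on assembly GRCh38.p14, a CArG box occurred in 9 of the 45 members that have a window (20% of them), and in 438 of 27305 genes of the whole table (1.6%). Some genes have several windows. Counted by window, the shares were 10.3% of the 87 windows of members and 1.29% of all 35116 windows. The box was found in windows of 3 of the 10 fallen members that have one (CNN2, TPM4 and SVIL), 1 of the 6 risen members (MYLK) and 2 of the 21 that did not pass the test (ACTN1 and MYO1E). ACTG1, ACTG2 and FLNA held a box too. The fallen TAGLN and ARPC1B have no window, nor do ACTB and MYL9, so their promoters were not read. Only exact matches were counted, so a looser form of the box, in ACTA2 or elsewhere, would be missed. The MCAT element, CATTCC on either strand, was in 24.4% of the members and 16.7% of all genes. The 4 windows below are those of the genes that changed and hold a CArG box. Each is the 200 bases before the start, 5′ to 3′ along the gene, with the box in capitals.
MYLK: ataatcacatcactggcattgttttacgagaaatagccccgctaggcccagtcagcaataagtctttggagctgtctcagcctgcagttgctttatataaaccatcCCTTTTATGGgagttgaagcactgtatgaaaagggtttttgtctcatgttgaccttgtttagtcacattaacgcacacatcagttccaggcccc
SVIL: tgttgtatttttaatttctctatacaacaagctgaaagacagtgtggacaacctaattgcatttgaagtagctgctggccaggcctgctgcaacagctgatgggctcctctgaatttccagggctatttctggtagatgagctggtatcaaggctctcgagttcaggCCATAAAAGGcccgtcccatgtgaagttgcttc
CNN2: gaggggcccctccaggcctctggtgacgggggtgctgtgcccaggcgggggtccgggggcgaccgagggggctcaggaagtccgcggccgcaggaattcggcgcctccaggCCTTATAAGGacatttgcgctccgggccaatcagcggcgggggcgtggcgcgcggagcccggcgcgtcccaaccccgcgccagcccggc
TPM4: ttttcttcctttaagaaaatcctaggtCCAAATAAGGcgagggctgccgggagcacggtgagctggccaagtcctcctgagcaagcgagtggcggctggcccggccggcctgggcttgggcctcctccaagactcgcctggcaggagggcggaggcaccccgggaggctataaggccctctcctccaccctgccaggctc
The MYLK sequence lies at chr3:123620549-123620748 on the minus strand, and its box starts 94 bases before the transcript start. That of SVIL is chr10:29634972-29635171, minus strand, with the box 33 bases before the start. CNN2 is shown at chr19:1026408-1026607, plus strand, with the box at 89 bases, and TPM4 at chr19:16067338-16067537, plus strand, with the box at 173 bases. The same kind of element thus stands before an annotated start of 3 genes that fell and of 1 that rose. MYLK has this window alone in the set read, while SVIL and TPM4 have others without a box. Whether the transcripts that changed begin at these starts was not tested. Nor was it tested whether the MYLK start read here is that of a transcript for the kinase. A match is only a run of letters, and binding was not measured.

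Among the actins, the smooth muscle isoform ACTA2 fell and the cytoplasmic isoform ACTB did not pass the test. ACTA2 read 6.41, 5.38 and 4.21 array medians in the parental replicates, in their order 1, 2 and 3 as in all values below, and 1.24, 1.77 and 1.03 in the resistant ones. Every resistant array lay below every parental one. The change was 3.99-fold (log2 change -2.00 ± 0.27 SE, n = 3 per group, adjusted p = 0.00211, limma), and it kept its call with each array left out in turn. ACTB, the main actin of non-muscle cells, gave 604, 516 and 614 in parental and 551, 576 and 578 in resistant cells, and these overlap (log2 change -0.02 ± 0.09, adjusted p = 0.905). ACTG1, the second cytoplasmic actin, has no probe set of its own here, since its 9 probe sets are shared with ACTB. Those 9 gave log2 changes from 0.22 to 0.36, and 1 passed the test (lowest adjusted p = 0.0351). The enteric smooth muscle actin ACTG2 was below the filter, with means of 0.706 and 1.07.

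The 3 measured tropomyosins moved in different directions. TPM2, a tropomyosin abundant in muscle and in fibroblasts, had signals of 4.55, 8.20 and 7.34 in parental and 1.31, 0.745 and 0.443 in resistant cells. All resistant values were near or under the array median. The log2 change of TPM2 was -3.10 ± 0.40 (adjusted p = 0.00155), and from -3.50 to -2.72 with single arrays left out. Its size depends on how such low signals are treated, as the fall was 8.59-fold as measured and 5.45-fold with 0.5 array medians added to all signals. TPM1, which gives both muscle and non-muscle isoforms by splicing, rose from 59.2, 59.8 and 53.9 to 88.0, 82.1 and 91.4 (log2 change 0.60 ± 0.11, adjusted p = 0.0108). Its call was lost without resistant array 1 (adjusted p = 0.0723) or resistant array 3 (0.0678). TPM4, a non-muscle tropomyosin of stress fibres and other filaments, declined from 23.4, 20.9 and 18.5 to 12.2, 10.7 and 15.1 (log2 change -0.74 ± 0.17, adjusted p = 0.0268). The call of TPM4 was lost without parental array 1 (0.0921), parental array 2 (0.0652), resistant array 1 (0.115) or resistant array 2 (0.123). TPM3 has no probe set that names it alone.

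Probe sets of one tropomyosin did not all read alike. TPM1, TPM2, TPM4 and TAGLN have 18 probe sets, of which 11 were tested, 3 rose, 5 fell and 3 did not pass, while 5.75% of all 26563 tested probe sets were called higher and 4.27% lower. TPM1 rose on 3 bright probe sets by 0.60, 0.60 and 0.64 on the log2 scale. The fourth tested one lay near the array median with a log2 change of -0.78 ± 0.75 (adjusted p = 0.54), and another 2 were below the filter. TPM2 was called on its brightest probe set alone, a probe set whose design allows it to match more than 1 transcript of a family. The other 3 TPM2 probe sets were dim in both groups, below 1 array median on all 6 arrays, with log2 differences of 0.09, -0.06 and 0.36. TPM4 fell on its brightest probe set and on another (log2 change -1.09 ± 0.21, adjusted p = 0.0125), and the one between these in brightness gave -0.51 ± 0.22 (adjusted p = 0.174).

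**Figure D2:**
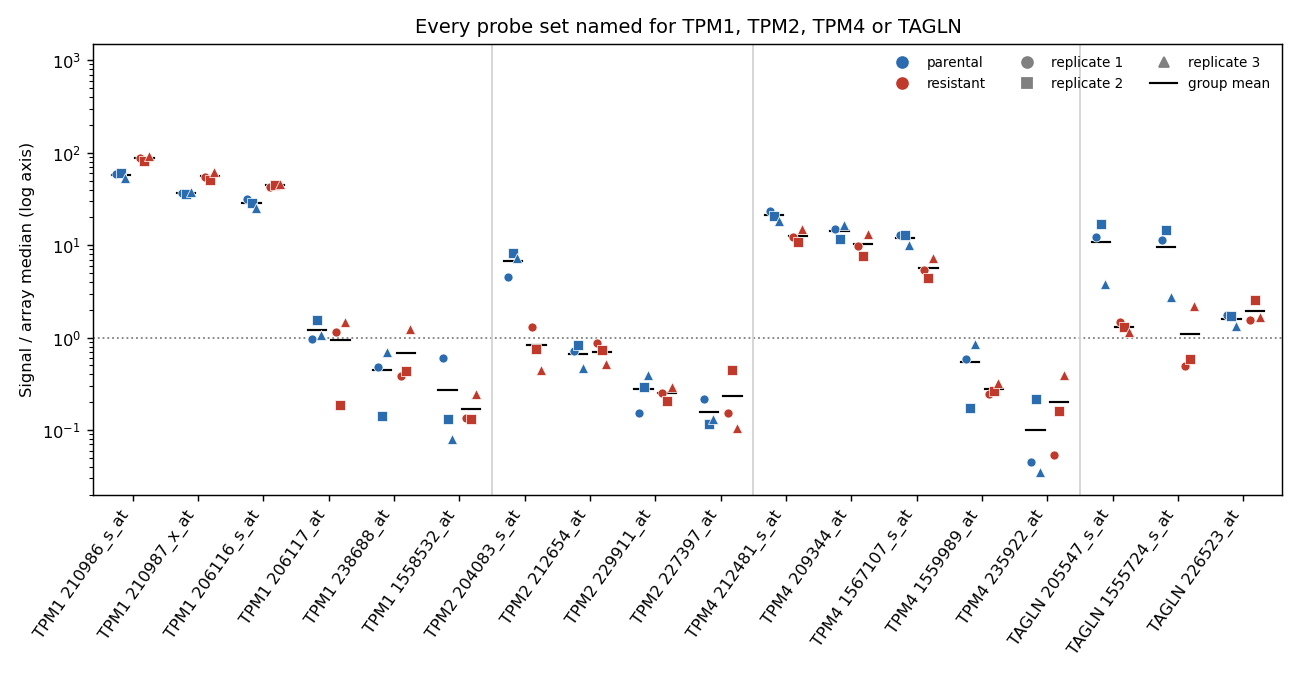
Signal of each of the 18 probe sets of TPM1, TPM2, TPM4 and TAGLN on each array, as a multiple of the array median on a log axis. Colours mark the groups, shapes the replicates and bars the group means. The bright TPM1 probe sets are higher in resistant cells, the brightest of TPM2 is lower, and the third TAGLN probe set shows no such fall.

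Transgelin and calponin are related proteins that bind along actin filaments, the first of each family in smooth muscle. TAGLN read 12.2, 16.8 and 3.78 in parental and 1.48, 1.30 and 1.17 in resistant cells. Parental array 3 was far below the other parental arrays and still above all resistant ones. TAGLN fell 7.02-fold (log2 change -2.81 ± 0.46, adjusted p = 0.00522), and without parental array 3 the log2 change was -3.45. A second probe set showed the same order, with 11.3, 14.7 and 2.73 against 0.495, 0.594 and 2.18 (log2 change -3.15 ± 0.67, adjusted p = 0.0186). The third was dim at 1.33 to 2.58 and did not pass (0.24 ± 0.31, adjusted p = 0.664), and it is the one TAGLN probe set of the type built for a single transcript. TAGLN is also one of the genes that the study itself picked out in these cells.

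The ubiquitous relative TAGLN2 rose from 154, 128 and 183 to 223, 205 and 243, a log2 change of 0.54 ± 0.14 (adjusted p = 0.0351), and both of its tested probe sets passed. That call was lost whenever any array other than parental array 3 was left out (adjusted p from 0.0809 to 0.141). CNN2, the non-muscle calponin, was reduced from 40.6, 43.4 and 35.4 to 22.2, 22.4 and 21.2 (log2 change -0.86 ± 0.13, adjusted p = 0.0044), on a probe set of the type that can share probes with unrelated transcripts. CNN3, acidic calponin, did not pass (0.24 ± 0.22, adjusted p = 0.524). The smooth muscle calponin CNN1 was dim throughout, from 0.0391 to 0.243, and the neuronal TAGLN3 was below the filter as well.

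Myosin light chain kinase rose, and 1 of the light chains, MYL12A, fell. MYLK read 2.45, 1.77 and 5.78 in parental and 22.5, 21.3 and 23.3 in resistant cells. The resistant arrays lay close together and well above all parental ones, of which array 3 was the highest. The rise was 7.63-fold (log2 change 2.93 ± 0.35, adjusted p = 0.00114), and it held with each array left out, from 2.57 to 3.42. Averaged over its tested probe sets MYLK rose 4.64-fold. On its second probe set MYLK gave 2.42, 1.52 and 2.78 against 4.32, 6.62 and 7.95 (log2 change 1.49 ± 0.29, adjusted p = 0.013), a smaller rise in the same direction.

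MYL12A, a regulatory light chain of non-muscle myosin II, read 100.2, 126 and 81.7 in parental and 53.4, 41.3 and 56.4 in resistant cells. The groups did not overlap. Its fall was 2.03-fold (log2 change -1.02 ± 0.18, adjusted p = 0.00761), and its other 3 tested probe sets, all below 5 array medians, had log2 changes from -0.27 to -0.08 that did not pass. Averaged over all 4 the change was -0.38, and the call was lost (adjusted p = 0.162). MYL9, the smooth muscle regulatory light chain, gave 2.73, 3.08 and 1.28 in parental and 1.05, 0.104 and 0.157 in resistant cells. These values do not overlap, but the log2 change of -3.10 ± 0.87 narrowly missed the threshold (adjusted p = 0.0504). MYL9 passed without parental array 3 (log2 change -3.49, adjusted p = 0.023) and without resistant array 1 (-4.12, adjusted p = 0.0209), and its change was -2.44 without resistant array 2. The essential light chain MYL6 and the regulatory light chain MYL12B did not pass, at -0.07 ± 0.09 and -0.15 ± 0.11. Caldesmon, CALD1, which holds back myosin on thin filaments, was under the filter, with 2.41, 1.50 and 0.885 in parental and 0.243, 0.491 and 0.217 in resistant cells. Its groups did not overlap either (log2 difference -2.32, not tested).

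The heavy chains of myosin II gave 1 call. MYH14, the non-muscle heavy chain found mainly in epithelia, stood at 11.1, 11.9 and 8.26 in parental and 3.62, 4.18 and 5.03 in resistant cells. All resistant arrays were below all parental arrays. The gene fell 2.43-fold (log2 change -1.28 ± 0.20, adjusted p = 0.00463) on a probe set that can share probes with unrelated transcripts, and its other 3 tested probe sets gave -0.79, -0.54 and -0.35 without passing. With all 4 averaged, the change was -0.74 (adjusted p = 0.0787). MYH9 and MYH10, the heavy chains of most non-muscle cells, had log2 changes of -0.40 ± 0.18 and 0.42 ± 0.21 and did not pass (adjusted p = 0.18 and 0.222), but without parental array 3 both did, at -0.55 and 0.64 (adjusted p = 0.0172 and 0.0136).

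Unconventional myosins carry cargo or tie membranes to filaments, and MYO6 alone among the 5 measured here passed the test. MYO6, which moves toward the pointed end of the filament, rose from 30.1, 36.7 and 32.6 to 48.3, 43.7 and 45.7 (log2 change 0.47 ± 0.13, adjusted p = 0.047), and all 3 of its tested probe sets had risen. The call was lost without any one array except parental array 3 or parental array 2 (adjusted p from 0.13 to 0.192). MYO1C, MYO1E, MYO5B and MYO10 had log2 changes between -0.31 and 0.19.

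Of 9 tested proteins that cross-link filaments or tie them to adhesions, 1 had risen (11.1%) and 2 had fallen (22.2%). The shares of all tested genes were 7.37% and 5.05%. All resistant arrays lay below all parental ones for 5 of the 9, and for 15.2% of all tested genes. XIRP1, a repeat protein that stabilises filaments at the junctions of striated muscle cells, read 2.53, 2.00 and 1.79 in parental and 0.144, 0.226 and 0.252 in resistant cells. It was dim in parental cells and lower still in resistant cells, with no overlap. The log2 change was -3.37 ± 0.62 (adjusted p = 0.00945). Without detection calls its size is uncertain, since the fall was 10.3-fold as measured, 7.06-fold with low values raised to the 25th percentile and 3.67-fold with 0.5 array medians added. The call was lost without parental array 1 (adjusted p = 0.0897) or parental array 2 (0.0623). SVIL, supervillin, which links filaments and myosin II to membranes, decreased from 15.1, 12.7 and 16.2 to 8.52, 7.76 and 10.4 (log2 change -0.73 ± 0.17, adjusted p = 0.0284), and a second probe set gave -0.88. Its call was lost without parental array 1 (0.0853), resistant array 1 (0.121) or resistant array 2 (0.127). PLS3, a plastin that bundles filaments, increased from 54.6, 58.4 and 68.8 to 92.3, 80.3 and 91.7 (log2 change 0.54 ± 0.13, adjusted p = 0.0277), and kept its call only with parental array 3 as the array left out (otherwise 0.0668 to 0.134).

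The other tested cross-linkers and adhesion proteins did not pass. LCP1, the plastin of leukocytes, had 2.84, 2.48 and 1.54 in parental and 0.0541, 1.24 and 1.32 in resistant cells. Its log2 change of -2.31 ± 1.06 (adjusted p = 0.195) rested on resistant array 1, since without it the change was -0.79. ACTN1 and ACTN4, the non-muscle alpha-actinins, gave 0.02 ± 0.14 and 0.13 ± 0.23, and ACTN4 passed once parental array 3 was left out (0.42, adjusted p = 0.0446). VCL, vinculin, gave -0.32 ± 0.14 and fascin, FSCN1, -0.04 ± 0.50. Zyxin, ZYX, an adhesion protein, gave -0.62 ± 0.20 (adjusted p = 0.0778), but its second probe set fell by 1.04 on the log2 scale (adjusted p = 0.0184), and the gene passed without parental array 3 (-0.81, adjusted p = 0.00481). Filamin A, FLNA, has no probe set that names it alone.

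**Figure D3:**
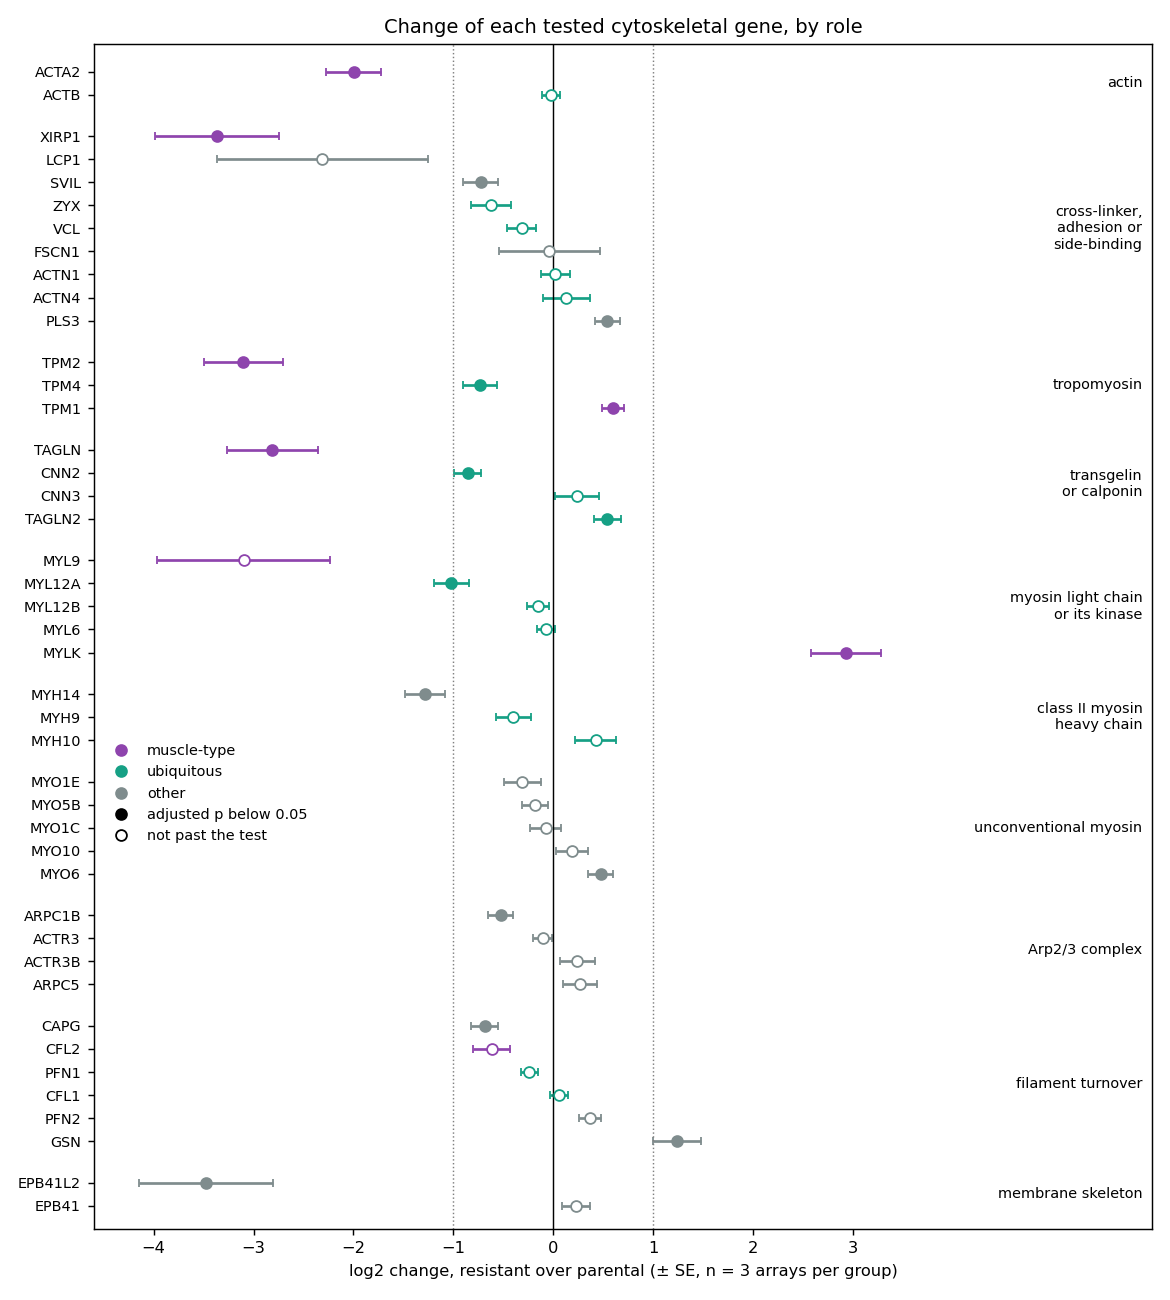
Log2 change (resistant over parental, ± SE, n = 3 arrays per group) of the 43 tested genes, grouped by role, with dotted lines at a 2-fold change. Filled points passed an adjusted p of 0.05, and colours mark muscle-type, ubiquitous and other genes. EPB41L2 (-3.48), XIRP1 (-3.37) and TPM2 (-3.10) lie far to the left and MYLK (2.93) far to the right, while the unconventional myosins stay between -0.31 and 0.47.

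In the Arp2/3 complex, which starts branched filaments, ARPC1B was the one member called. It went from 114, 93.1 and 121 to 74.0, 78.6 and 74.3 (log2 change -0.52 ± 0.12, adjusted p = 0.0285). The call was lost without parental array 1 or any resistant array (adjusted p from 0.0923 to 0.124). ACTR3, ACTR3B and ARPC5 had log2 changes of -0.10, 0.24 and 0.27, and ARPC5 passed without parental array 3 (0.48, adjusted p = 0.00549). ACTR2 has no probe set that names it alone, and the listed name CFN1 matched no symbol of the annotation.

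Gelsolin and CapG, 2 relatives that cap the fast-growing end of filaments, moved apart. GSN, which also severs filaments, read 25.8, 22.4 and 46.0 in parental and 62.6, 75.3 and 74.3 in resistant cells. Parental array 3 was the closest of its group to the resistant arrays, and still below them. The rise was 2.36-fold (log2 change 1.24 ± 0.24, adjusted p = 0.0114), a second probe set gave 1.07 (adjusted p = 0.00986), and the call was lost without resistant array 2 (0.0627) or resistant array 3 (0.0601). CAPG dropped from 79.5, 62.5 and 64.5 to 38.8, 43.2 and 46.0 (log2 change -0.68 ± 0.14, adjusted p = 0.0141). Its call was lost without parental array 1 (0.0524), resistant array 1 (0.0873) or resistant array 2 (0.0652). Among proteins that speed filament turnover, the muscle cofilin CFL2 gave 5.71, 6.23 and 7.48 in parental and 4.01, 3.83 and 4.83 in resistant cells without passing (log2 change -0.61 ± 0.19, adjusted p = 0.0644), and the non-muscle cofilin CFL1 gave 0.06 ± 0.09. The profilins, which deliver actin subunits, did not pass either, PFN1 at -0.24 ± 0.09 and PFN2 at 0.37 ± 0.11 (adjusted p = 0.116 and 0.0591). Both passed without parental array 3 (adjusted p = 0.0485 for PFN1 and 0.00428 for PFN2).

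Of the 2 members of the membrane skeleton, which pins short actin filaments to the plasma membrane, EPB41L2 fell and EPB41 did not pass. EPB41L2 read 6.90, 3.54 and 6.83 in parental and 0.739, 0.142 and 1.16 in resistant cells. Each resistant array was below each parental array. The log2 change was -3.48 ± 0.67 (adjusted p = 0.0122), and a second probe set gave -3.03 (adjusted p = 0.0166). The resistant signals are too low to fix its size, as the fall was 11.1-fold as measured and 5.50-fold with 0.5 array medians added. Without parental array 1 the call was lost (adjusted p = 0.0556), and the log2 change was -2.57 without resistant array 2 and -4.09 without resistant array 3. EPB41, the erythrocyte-type protein of the same family, gave 0.23 ± 0.14 (adjusted p = 0.314).

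Types were assigned by gene, and muscle and non-muscle transcripts of the same gene, as of TPM1, were not told apart. Taking the genes by type, 8 of the 11 muscle-type genes were tested, of which 2 had risen (TPM1 and MYLK) and 4 had fallen (ACTA2, TPM2, TAGLN and XIRP1). That is 25% risen and 50% fallen, beside 7.37% and 5.05% of all tested genes. The median log2 change of the muscle-type genes was -2.40. Of the 19 ubiquitous genes 16 were tested, with 1 risen (TAGLN2), 3 fallen (TPM4, CNN2 and MYL12A) and a median of -0.11. Their shares were 6.25% risen, near that of all tested genes, and 18.8% fallen. Of the 8 tested muscle-type genes, TPM2, MYL9 and XIRP1 passed the filter through the parental group alone. Without them the muscle-type genes gave 2 risen, 2 fallen (ACTA2 and TAGLN) and a median of -0.61. The matching shares of all tested genes were not computed. Within families, the difference between the 2 isoforms was taken on each array and compared between groups with an exact permutation test, two-sided, in which 3 arrays against 3 cannot give a p below 0.1. The log2 change of the muscle-type gene minus that of its relative was -3.35 ± 0.81 (SE) for TAGLN and TAGLN2, -2.37 ± 0.64 for TPM2 and TPM4, -1.98 ± 0.31 for ACTA2 and ACTB and -0.67 ± 0.14 for CFL2 and CFL1. In each of these 4 pairs no resistant array overlapped a parental one, at the smallest p the exact test can give (0.1, or 0.15 after adjustment over 6 pairs). The share of other gene pairs without overlap was not computed, so this count has no background beside it. Of single tested genes, 20.2% lay above and 15.2% below without overlap. MYL9 against MYL12A gave -2.08 ± 1.00 and CNN1 against CNN2 gave 1.12 ± 0.87, and both overlapped (exact p = 0.2). The differences for TPM2 and MYL9 share the limit that these genes were bright in parental cells alone, and CNN1 was below the filter. TPM1 and ACTG2 could not be paired, since TPM3 and ACTG1 have no probe set of their own. TPM1 rose (0.60) where TPM2, bright in parental cells alone, fell (-3.10), so the 2 muscle-type tropomyosins did not share a direction. ACTG2, below the filter, gave a log2 difference of 0.70.

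**Figure D4:**
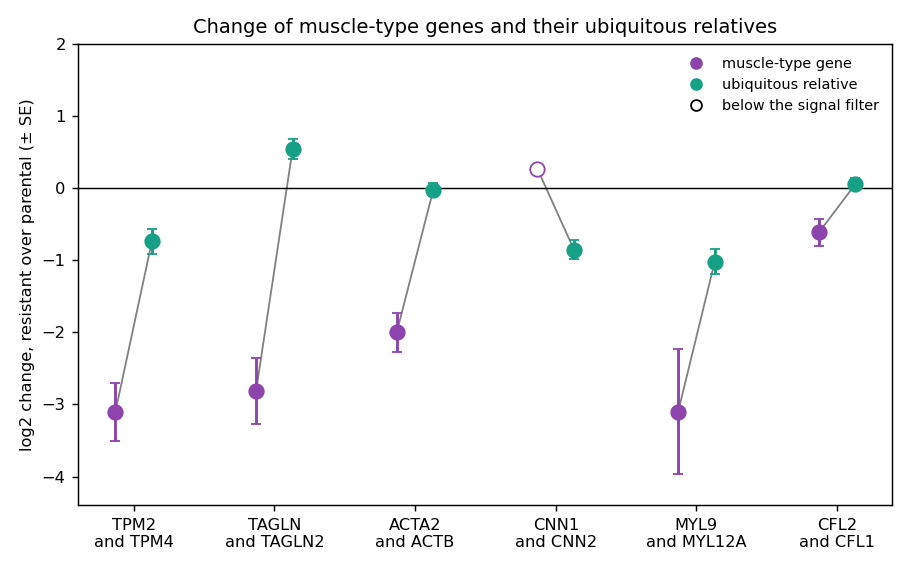
Log2 change (resistant over parental, ± SE from limma, n = 3 arrays per group) of each muscle-type gene and its ubiquitous relative, joined by a line. The muscle-type gene has the lower log2 change in 5 of the 6 pairs that could be formed, which leave out TPM1 (0.60) and ACTG2 (0.70). TPM2 and MYL9 passed the filter through the parental group alone, so the direction of their pairs carries no weight in the 5. CNN1, drawn open without an error bar, was below the signal filter.

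Among 52 further regulators of actin, 48 were tested, with 3 risen and 6 fallen (6.25% and 12.5%, beside 7.37% and 5.05% of all tested genes) and a median log2 change of -0.19. The largest were CAP2, a cyclase-associated protein (log2 change 3.50 ± 0.70), TLN1, talin, which couples integrins to actin (-1.30 ± 0.32), EVL, a filament elongation factor (1.05 ± 0.27), and TMOD3, tropomodulin 3, which caps tropomyosin-coated filaments at the pointed end (-0.88 ± 0.19). With single arrays left out CAP2 ranged from 2.54 (without parental array 2) to 4.28 (without parental array 3) and lost its call without any one resistant array (adjusted p from 0.0624 to 0.0706). It was bright in resistant cells alone, with a parental mean of 0.709. TLN1 and EVL lost theirs without any array other than parental array 3, and TMOD3 without any array other than parental array 3 or resistant array 3. Of 26 further muscle contractile genes 9 were bright enough to test, and 1 rose and 1 fell, both bright in 1 group alone. Each is 11.1% of the 9, beside 7.37% of all tested genes called higher and 5.05% called lower. NEB, nebulin, rose (1.75 ± 0.36) and TNNC1, the troponin C of slow and cardiac muscle, fell (-2.19 ± 0.53), NEB losing its call without any one resistant array and TNNC1 without parental array 1, parental array 2 or resistant array 2. TNNC1 was -1.47 without resistant array 3.

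Of 23 further genes for serum response factor, its cofactors and targets, 17 were tested. Among these 3 had risen (17.6%, beside 7.37% of all tested genes), and the median log2 change was -0.29. CRIM1 (2.09 ± 0.23), FOS (1.72 ± 0.25) and EGR1 (1.05 ± 0.14) rose, and none fell in limma's test, beside 5.05% of all tested genes. An unadjusted p below 0.05 in limma's test was found for 7 of the 17 in either direction. The share of all tested genes at that p was not computed, so this count has no background beside it. All resistant arrays lay below all parental ones for 5 of the 17, and for 15.2% of all tested genes. The methods' t-test, which called 0.608% of all genes fallen, gave 0 fallen as well. Without parental array 3 there were 5 fallen of the 17, and 15.3% of all tested genes were called fallen in that fit. Markers of other cell types were summed on each array. The summed signal of 7 smooth muscle markers, which include CNN1 and ACTG2, was 4.54 to 5.93 array medians on the parental and 2.95 to 5.03 on the resistant arrays, with 3 of the 7 below the array median on all arrays and 1 tested, which did not pass. For 7 measured markers of skeletal or cardiac muscle the sums were 4.30 to 4.94 and 2.87 to 4.08. Fibroblast markers, 11 in number with 4 tested, summed to 8.45 to 9.88 on the parental and 11.5 to 12.9 on the resistant arrays, and LUM alone rose (log2 change 3.20 ± 0.55), bright in resistant cells alone. Leukocyte markers summed to 12.2 to 23.1 and 10.3 to 13.1. The part of such cells in the changes above was not tested.

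TPM2 has neighbours that fell with it on chromosome 9. On one side of it TLN1, CREB3 and GBA2, the next tested genes in order, had log2 changes of -1.30, -1.35 and -0.76, all past the test. On the other side ARHGEF39 and CCDC107 gave -0.05 and 0.05 and did not pass.

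Many of the calls were lost when 1 array was left out. Of the 18 called members, 7 (ACTA2, CNN2, MYH14, MYL12A, MYLK, TAGLN and TPM2) passed with each of the 6 arrays left out, and 11 lost the call at least once. Leaving out parental array 3 lost none of the 18, while leaving out parental array 1 lost 9. With all 6 arrays, 7.37% of all tested genes were called higher and 5.05% lower. These shares were 4.18% and 2.21% without parental array 1, and 16.9% and 15.3% without parental array 3. How much of the loss comes from fewer arrays was not tested. Parental array 3 was the parental array nearest to the resistant mean for 11 of the 18 called members.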

How the data were processed

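The authors deposited 1 linear signal intensity per probe set for each of 6 Affymetrix arrays, 3 parental and 3 resistant. The submitters' processing notes name MAS5, with version and scaling not given in the sources used here. No detection calls were used, and 0 columns belonged to other samples. Separate cultures are not stated for the arrays of a group, and a p-value here reflects only the spread among them, possibly technical. Precision was limited by 3 arrays per group.

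Control probe sets (62) were left out. Intensities were divided by the array median, exact zeros were set to 0.05, and log2 was taken. Those averaging 1 array median or more (26563 probe sets) were compared with limma 3.58.1 in R 4.3.3 (two-sided, lmFit, eBayes with intensity trend) and p-values adjusted over all of them by Benjamini-Hochberg, after tests on simulated data. Gene names came from the platform annotation updated through RefSeq (41091 probe sets with 1 symbol, 1801 with several, 11721 unlisted). Members were named with their change where called, with each array's value at 2-fold or more, along with all TPM1 to TPM4 and TAGLN probe sets and pair members. Values of members called at under 2-fold, and of TPM2's neighbours, go beyond that rule, and so do CALD1 and LCP1. Of other lists, up to 4 called genes were named, and the called epithelial markers. Members and lists were chosen with earlier results of these data known. Alternatives were quantile normalization, no scaling, no filter, a filter at 3 array medians, low values raised to the 25th percentile, an offset of 0.5 array medians, no intensity trend, the replicate block, the methods' t-test, the mean of all probe sets, no shared-probe types, a 2-fold limit, and each array left out.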

Additional observations from a re-analysis of the deposited data

How the results depend on the processing

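The median log2 change of the members was -0.15, and -0.21 to -0.09 with single arrays left out. Risen and fallen members numbered 6 and 12, and 1 to 10 and 6 to 16 with single arrays left out. They were 2 risen without scaling (median -0.23), 1 and 6 without the intensity trend, 0 and 1 by the methods' t-test, 3 and 5 without probe sets of the types that share probes or read several transcripts (28 members tested, median -0.0042), and 2 and 7 at 2-fold. Muscle-type members, 2 risen and 4 fallen, gave 1 to 2 and 3 to 5 with single arrays left out. Their risen count was 1 without scaling, without the trend, with the mean of all probe sets, without shared types and at 2-fold, and 0 by the t-test, and their fallen count was 1 by the t-test and 2 without shared types. Their median of -2.40 became -2.00 without a filter, -1.31 with a filter at 3 array medians, -1.67 with the offset, -1.95 with the mean of all probe sets and -0.78 without shared types. Ubiquitous members, 1 risen and 3 fallen, gave 0 to 3 and 2 to 6 with single arrays left out. Their risen count was 0 under quantile normalization, no scaling, no filter, no trend, the t-test and 2-fold, and their fallen count 1 without the trend, 0 by the t-test, 1 without shared types and 1 at 2-fold. Their median was -0.22 after quantile normalization and turned to 0.0569 without shared types.

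Without shared types TPM1 turned to -0.78 (adjusted p = 0.54) and TAGLN to 0.24 (adjusted p = 0.664), each read from its dim remaining probe set. The 3 risen probe sets of TPM1 to TPM4 and TAGLN became 0 without scaling, without the trend, by the t-test and at 2-fold, the 5 fallen became 2 without the trend and 0 by the t-test, and single arrays left out gave 0 to 3 risen and 2 to 5 fallen. The difference of TAGLN and TAGLN2 was -0.31 without shared types, and that of MYL9 and MYL12A -0.68 with the offset.

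Actin regulators, 3 risen and 6 fallen, gave 0 to 8 and 0 to 14 with single arrays left out, 1 risen without scaling, 1 and 3 without a filter, 1 and 1 without the trend, 0 and 0 by the t-test, 1 risen without shared types and 1 fallen at 2-fold. Their median of -0.19 was -0.27 without scaling, -0.12 with the mean of all probe sets, -0.14 without shared types and -0.22 to -0.13 with single arrays left out. The 1 risen and 1 fallen muscle contractile gene became 0 and 0 with a filter at 3 array medians and by the t-test, 0 fallen without the trend, and 0 to 1 each with single arrays left out. Their median of -0.64 turned to 0.14 with that filter, and was -0.45 with raised low values, -0.28 with the offset and -0.69 to -0.33 with single arrays left out. The serum response factor list had 1 risen without shared types, 1 fallen after quantile normalization, with the filter at 3 array medians and with the offset, 0 to 5 fallen with single arrays left out, and a median of -0.10 with that filter. The cause of these shifts was not tested, apart from the fewer arrays or genes that some settings use.

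Arrays with the same replicate number did not deviate together (correlations of -0.0182, -0.0218 and -0.0165), so the values gave no sign of a pairing by number. Whether same-numbered arrays were handled together cannot be told from these correlations. With the replicate block 4 members had risen and 11 fallen, 14 of the 18 calls held, and 3 actin regulators fell.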
